A study of Mus musculus with 9 samples.

Results

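The genes described here encode Wnt ligands, their Frizzled receptors, the R-spondins, the secreted antagonists of the Sfrp and Dkk families and Wif1, and the pathway's transcriptional readouts Axin2 and Lef1. They were taken as every probe set with a single gene symbol of Wnt, Fzd, Sfrp, Dkk or Rspo followed by a number, or with the symbol Wif1, Axin2 or Lef1. That gave 44 genes on 84 probe sets, of 18193 genes with a single-symbol probe set. They comprise 19 ligands, 10 receptors, 4 R-spondins, 9 antagonists and 2 targets. An opposite-strand transcript at Fzd10, on 2 probe sets, was left out, and Tcf7 was not analysed here.

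The mouse stomach has a squamous, non-glandular forestomach and a glandular corpus, which meet at the squamocolumnar junction on the limiting ridge. Adjacent stripes of junction, forestomach and corpus, each 600 to 800 µm wide, came from 9 untreated, healthy female C57Bl/6 mice aged 3 months. Tissue of 3 mice was pooled for each of 3 series, so that every zone has 3 microarrays, and the arrays of a series share their mice. No zone carried a transgene, deletion or treatment.

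The labels call the samples epithelium, but the stripes also held muscle and connective tissue transcripts. The summed signal of 8 smooth muscle markers was 24422.5 to 29069.3 in junction, 56605 to 61974.4 in forestomach and 21407.2 to 31184.5 in corpus. The sum of 5 squamous basal markers was 12327.1 to 17966.5 in junction, 13434.6 to 16370.8 in forestomach and 143.7 to 340.6 in corpus, and that of 6 parietal cell markers was 33783.5 to 40723.7, 164.1 to 2005 and 38764.5 to 53541.3 in the same order of zones. Surface and neck mucous cell markers were less clear-cut, with sums of 63175.8 to 74969.1 in junction, 1204.8 to 29979.5 in forestomach and 53686.4 to 81715.1 in corpus, and 3 of 6 were called lower in forestomach than in corpus. Forestomach array 1 stood apart from the other two in its small content of glandular transcripts. Gkn1, a secreted protein of surface mucous cells, had 260.4 on that array, against 7130 and 10404 on the other forestomach arrays. For the Gapdh control, 3′ over 5′ signal averaged 0.759 ± 0.0043 in junction, 0.846 ± 0.071 in forestomach and 0.723 ± 0.029 in corpus (SD, n = 3 each).

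Wnt proteins are secreted lipid-modified ligands that bind Frizzled receptors. With an Lrp co-receptor, many of them stabilise beta-catenin, which then switches on genes such as Axin2 through TCF/LEF factors, while others, such as Wnt5a, are known mainly for signalling that does not need beta-catenin. R-spondins amplify the signal through Lgr receptors, whereas Sfrp proteins and Wif1 bind the ligands and Dkk proteins bind the co-receptor. In stomach and other gut, the mesenchyme under the epithelium is a known source of R-spondins and of several ligands and antagonists, and Wnt signalling maintains epithelial stem cells.

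Of the 44 genes, 30 passed the filter, which kept a probe set whose signal was above the 40th percentile of the array on at least 3 arrays, a level of 29.0 to 36.5. Those 30 were 10 ligands, 9 receptors, 3 R-spondins, 7 antagonists and Axin2. Wnt7a passed through its 3 corpus arrays alone, and Wif1 passed on 3 arrays, none of them corpus. Wnt10a and Dkk2 passed on their 6 junction and forestomach arrays alone. For such genes a difference between zones follows in part from the filter, so the counts below are descriptions of the 30 genes. The other 14 genes did not pass on any of their 19 probe sets, where no signal exceeded 49.2.

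Most of the tested Wnt genes were higher in forestomach than in corpus. By limma with Benjamini-Hochberg adjustment over 13637 genes, 19 of 30 were higher and 5 lower at an adjusted p under 0.05, where 30.0% of all genes were higher and 29.9% lower, or 59.9% either way. The median log2 difference was 1.07 over these genes and -0.01 over all genes. The arrays of the 2 zones did not overlap for 24 of the 30, against 66.4% of all genes. In junction against corpus, 14 were higher and 2 lower, against 13.2% higher and 11.8% lower of all genes, or 25.0% either way, and 18 did not overlap, against 43.8%. In junction against forestomach, 4 were higher and 12 lower, against 21.5% and 23.1%, or 44.6% either way, and 18 did not overlap, against 55.8%. The median differences in these comparisons were 0.415 and -0.24, against -0.05 and -0.04 over all genes. Without forestomach array 1, forestomach against corpus gave 19 higher and 4 lower, and junction against forestomach gave 3 higher and 11 lower. Each zone enters a pair of these comparisons, so that they share arrays. In stripes of mixed tissue, fewer cells of a type and less RNA per cell cannot be told apart.

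**Figure D1:**
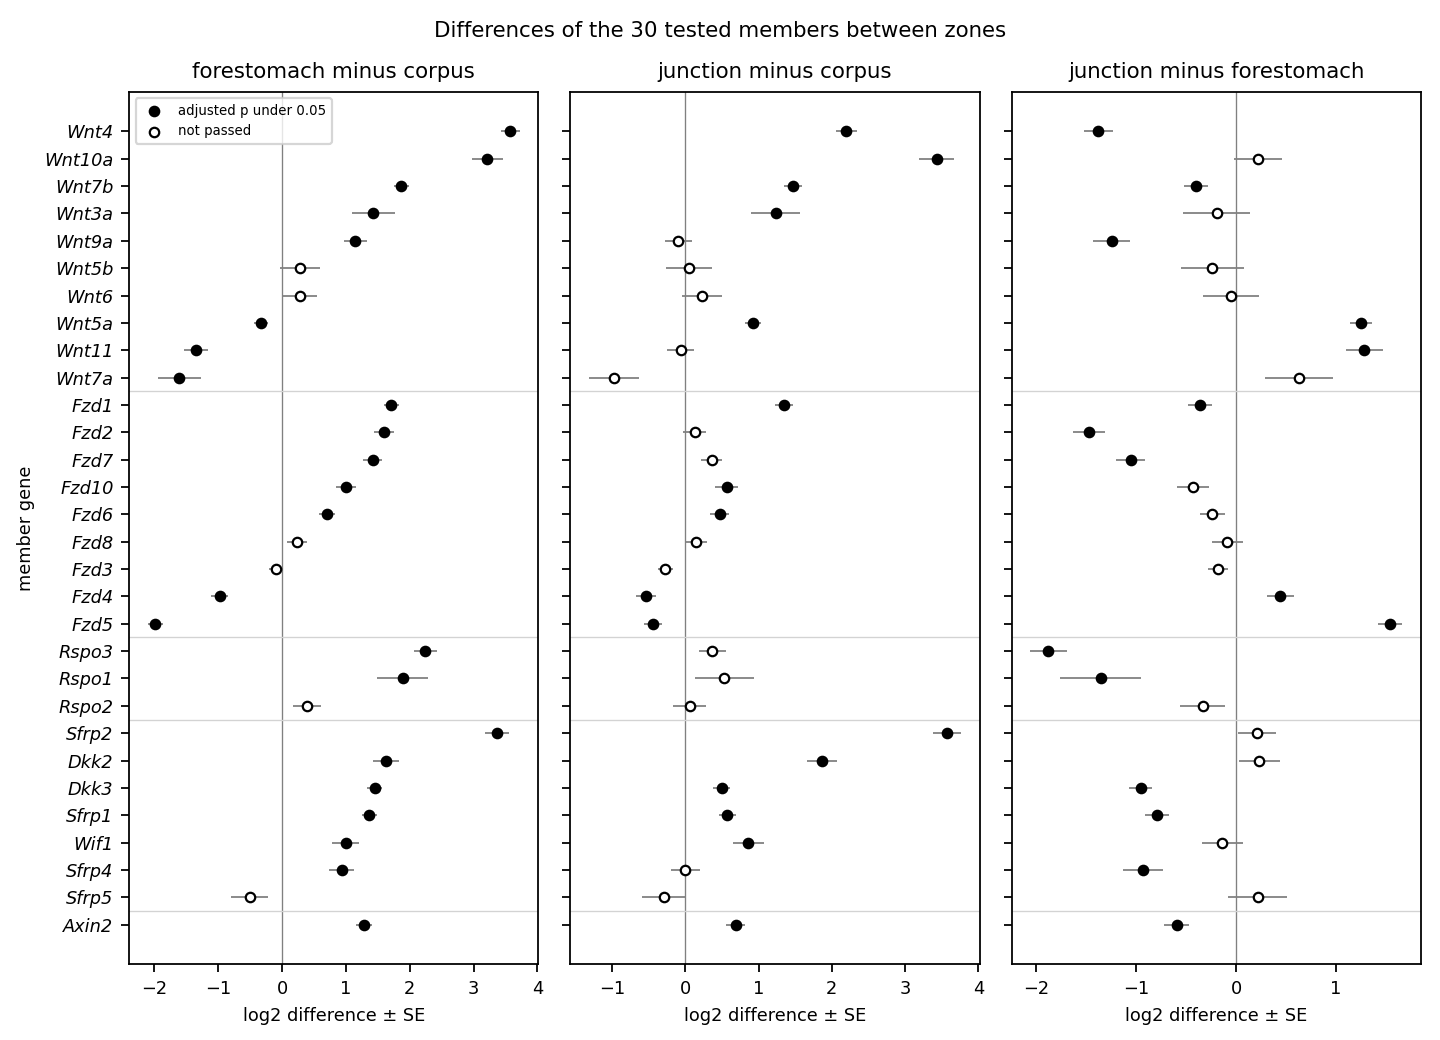
Log2 differences of the 30 tested genes, grouped by role, in panels for forestomach minus corpus, junction minus corpus and junction minus forestomach. Bars are SE and filled points passed at an adjusted p under 0.05. Of the 30 genes, 19 lie above 0 with a call in forestomach against corpus, and Wnt5a is the gene called higher in junction against both neighbours.

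Wnt5a was the only one of the 30 genes that stood above both neighbours in the junction. It had signals of 293.8, 353.1 and 296.6 in junction, 130.7, 127.6 and 120.7 in forestomach, and 162.4, 144.6 and 177.3 in corpus. Every junction array lay above every array of the other zones. The junction was 2.37-fold higher than forestomach (log2 difference 1.25 ± 0.11 SE, limma adjusted p = 4.2e-05) and 1.89-fold higher than corpus (0.92 ± 0.11, limma adjusted p = 0.000526). Both calls held under all 22 alternatives run for them.

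Tested jointly, with the larger of the 2 p-values taken for each gene, Wnt5a was above both neighbours at a limma adjusted p of 0.0183. This joint call was made for 27 of 13637 genes, or 0.198%, and Wnt5a ranked 23 of the 27 by its smaller difference; 2 genes, or 0.0147%, were below both, none of them a Wnt gene. With the series as a block, since its arrays come from the same mice, the limma adjusted p of the joint call was 0.0973. It was also above the threshold without forestomach array 3 (0.0586), without any one of the junction arrays (0.0569, 0.093 and 0.0956), without corpus array 1 or 2 (0.0794 and 0.0594) and without any whole series (0.323, 0.359 and 0.394). The smaller difference itself stayed between 0.73 and 1.02 on the log2 scale in all alternatives.

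Other probe sets of Wnt5a gave the same order where they were bright. Probe set 1448818_at had 198.6, 186.0 and 180.3 in junction, 88.2, 101.3 and 86.6 in forestomach, and 112.2, 93.4 and 99.2 in corpus. Its joint call had a limma adjusted p of 0.0358 over all probe sets. The dimmer 1437673_at had 72.1, 97.5 and 75.4 in junction, 35.2, 17.3 and 22.8 in forestomach, and 24.3, 37.8 and 26.0 in corpus. Its groups did not overlap either, but the joint test gave a limma adjusted p of 0.0924. The fourth, 1456976_at, had overlapping signals of 32.7 to 60.7 in junction, 21.4 to 45.6 in forestomach and 36.7 to 53.4 in corpus, and was not called.

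**Figure D2:**
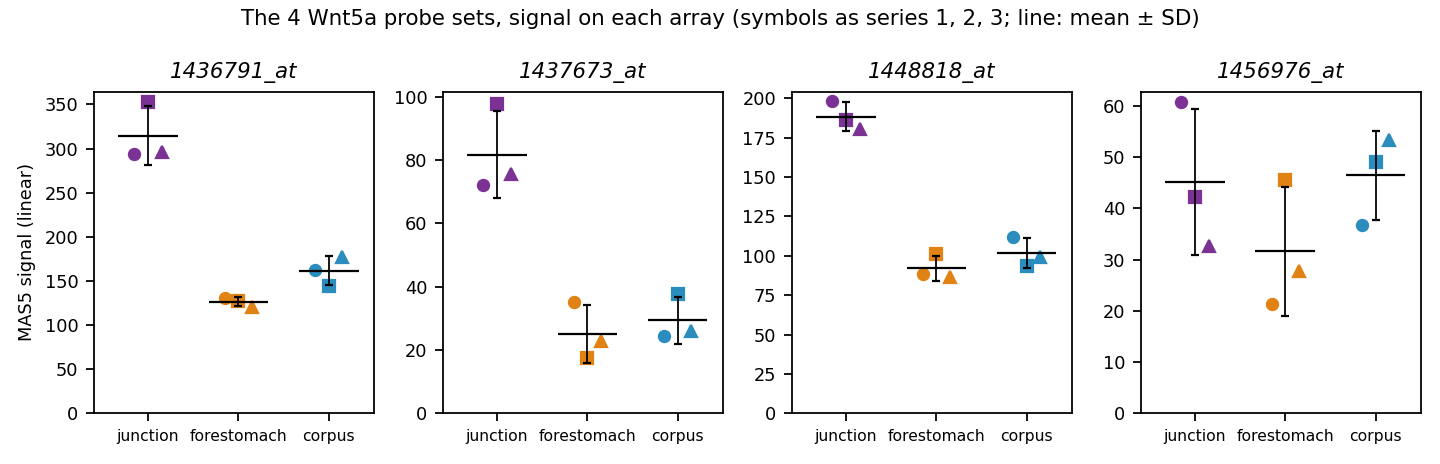
MAS5 signal of the 4 Wnt5a probe sets on each array, on a linear axis, with symbols for series 1 to 3 and the mean ± SD of each zone. On 3 probe sets all junction arrays lie above all forestomach and corpus arrays; 1456976_at overlaps.

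On its brightest probe set, Wnt5a also differed slightly between the outer zones. Forestomach was 1.25-fold lower than corpus (log2 difference -0.33, limma adjusted p = 0.0292). That call was lost in 8 of 22 alternatives, including the series block (limma adjusted p = 0.0552). It was also lost without any one of the forestomach arrays (0.0518, 0.0586 and 0.0838), without corpus array 1 or 3 (0.071 and 0.0959) and without series 1 or 3 (0.124 and 0.228). The other kept probe sets, 1448818_at, 1437673_at and 1456976_at, overlapped between these zones and were not called (limma adjusted p = 0.3492, 0.4996 and 0.1467).

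Wnt4, a ligand known for kidney and reproductive tract development, had the largest difference between the outer zones among the 30 genes. Its signals were 529.8, 643.7 and 741.5 in junction, 1694.5, 1665.2 and 1625.0 in forestomach, and 150, 110.8 and 132.4 in corpus. The junction lay between its neighbours, and no zone overlapped another. Forestomach was 11.9-fold higher than corpus (3.58 ± 0.14, limma adjusted p = 2.08e-07), and junction was 4.59-fold higher than corpus and 2.6-fold lower than forestomach (limma adjusted p = 1.26e-05 and 0.000109). All 3 calls held in every alternative run. The second kept probe set, 1441687_at, was called in the same directions, with junction 1.67-fold lower than forestomach (limma adjusted p = 0.00934).

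The 250 bases before the start of Wnt4, chr4:137277385-137277634 on the plus strand of GRCm38.p6 in RefSeq, are shown because no other member differed more between the outer zones. Capitals here and in the sequences below mark the letters CTTTGT or CTTTGA, the core bound by TCF/LEF factors, and GGGCGG, the GC box, read on either strand and allowed to overlap. RefSeq promoters were at hand for 30 of the 44 genes, and those printed were chosen after the values were seen.
Wnt4: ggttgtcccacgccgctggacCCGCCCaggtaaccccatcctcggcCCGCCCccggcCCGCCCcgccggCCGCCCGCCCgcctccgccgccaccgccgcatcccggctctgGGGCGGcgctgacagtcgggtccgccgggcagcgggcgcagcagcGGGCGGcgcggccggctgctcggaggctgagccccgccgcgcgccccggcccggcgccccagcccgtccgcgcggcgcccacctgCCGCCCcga
The Wnt4 window holds 8 GC boxes and no TCF/LEF core. Of 32851 RefSeq windows of this length, 32.74% hold GGGCGG and 27.62% hold CTTTGT or CTTTGA; the core was in 8 of the 36 windows of these genes. A match is a run of letters and not a shown binding site.

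Wnt10a and Wnt7b, ligands known from skin and its appendages, were high in both zones with squamous epithelium. Wnt10a had 180.9, 281.0 and 303.4 in junction, 221.0, 219.0 and 198.6 in forestomach, and 9.8, 24.0 and 10.9 in corpus. The corpus arrays were all below the filter level, and the other zones overlapped one another. The difference was 3.43 ± 0.24 for junction against corpus and 3.21 ± 0.24 for forestomach against corpus (limma adjusted p = 1.9e-05 and 6.3e-06), with ranges of 2.63 to 4.08 and 2.42 to 3.86 across the alternatives, set by the pseudocount. With no filter, the limma adjusted p was 5.07e-05 and 1.65e-05.

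Wnt7b had 299.5, 365.9 and 319.8 in junction, 385.2, 490.1 and 438.2 in forestomach, and 101.3, 119.9 and 115.9 in corpus. Junction was 2.76-fold and forestomach 3.65-fold higher than corpus (limma adjusted p = 5.61e-05 and 2.7e-06). Junction was 1.32-fold lower than forestomach (limma adjusted p = 0.0266). This smaller step was lost in 8 alternatives: with the mean of its probe sets (limma adjusted p = 0.26), without forestomach array 2 or 3 (0.0846 and 0.0658), without junction array 1 or 3 (0.0859 and 0.0684) and without series 1, 2 or 3 (0.0628, 0.0726 and 0.169).

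Wnt3a, a ligand that stabilises beta-catenin, was dimmer and more scattered. It had 87.9, 60.6 and 37.8 in junction, 67.0, 68.4 and 72.2 in forestomach, and 16.1, 38.8 and 10.2 in corpus. The lowest junction array fell below the highest corpus array. Forestomach was 2.69-fold higher than corpus (limma adjusted p = 0.00596), and junction was 2.35-fold higher than corpus (limma adjusted p = 0.0296). The junction call was lost in 8 alternatives: on the 6 arrays alone (limma adjusted p = 0.0645), without junction array 1 or 2 (0.0804 and 0.0797), without corpus array 1 or 3 (0.0894 and 0.0871) and without series 1, 2 or 3 (0.223, 0.0548 and 0.0794).

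Wnt9a, a ligand known for joint formation, was highest in forestomach. It had 64.7, 88.6 and 66.8 in junction, 191.9, 145.9 and 229.8 in forestomach, and 90.8, 79.2 and 67.3 in corpus. Junction was 2.37-fold lower than forestomach, and forestomach was 2.22-fold higher than corpus (limma adjusted p = 0.00073 and 0.00067). Junction and corpus overlapped (log2 difference -0.10 ± 0.18).

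Wnt11 and Wnt7a had the opposite order. Wnt11, which acts in convergent extension movements, had 151.4, 146.7 and 170.5 in junction, 76.0, 61.1 and 41.7 in forestomach, and 139.5, 175.7 and 178.5 in corpus. Junction was 2.44-fold higher than forestomach and overlapped with corpus, and forestomach was 2.55-fold lower than corpus (limma adjusted p = 0.000635 and 0.000257). Wnt7a had 31.2, 30.7 and 7.5 in junction, 7.3, 6.4 and 17.8 in forestomach, and 57.1, 52.3 and 43.3 in corpus. Forestomach was lower than corpus by limma (log2 difference -1.61 ± 0.34, adjusted p = 0.00325), with a range of -2.30 to -0.99 set by the pseudocount. Wnt7a passed the filter on its corpus arrays alone, so that p-value follows in part from the filter. The limma adjusted p with no filter was 0.00573. Junction did not pass against either neighbour for Wnt7a (limma adjusted p = 0.0676 against corpus and 0.164 against forestomach). It passed against corpus with a larger pseudocount, with median centring and without series 3 (limma adjusted p = 0.0333, 0.0462 and 0.0279), and against forestomach without junction array 3 (0.00904) and without series 3 (0.00166).

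Wnt5b and Wnt6 passed the filter, and neither passed a test on all arrays. Wnt5b ranged over 22.6 to 55.9 in junction, 32.3 to 55.2 in forestomach and 23.0 to 51.9 in corpus. Wnt6 ranged over 36.9 to 87.1, 53.4 to 57.5 and 33.6 to 64.7 in the same zones. All 3 zones overlapped for both genes. Without series 2, Wnt6 was higher in forestomach than in corpus (limma adjusted p = 0.0328).

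**Figure D3:**
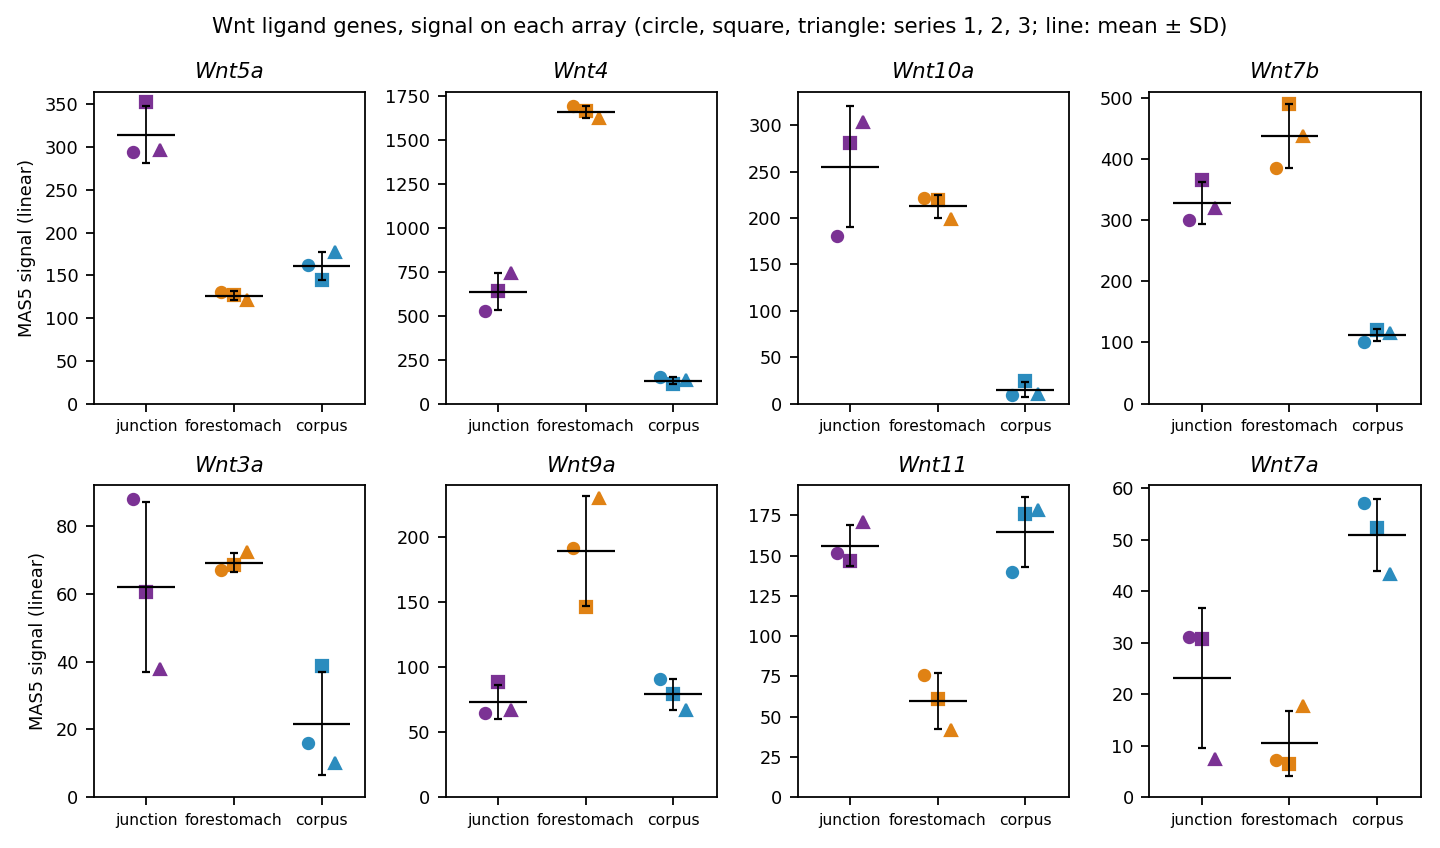
MAS5 signal of ligand genes on each array in junction, forestomach and corpus, on linear axes, with symbols for series 1 to 3 and the mean ± SD. Wnt4 is ordered forestomach, junction, corpus without overlap, and Wnt10a is at 24.0 or less in corpus.

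Among the Frizzled receptors, 5 of 9 were higher and 2 lower in forestomach than in corpus. In junction against corpus 3 were higher and 2 lower, and in junction against forestomach 2 were higher and 3 lower. Of all genes, 30.0% were higher and 29.9% lower in forestomach against corpus. The shares were 13.2% and 11.8% in junction against corpus, and 21.5% and 23.1% in junction against forestomach. Fzd1, Fzd2, Fzd7, Fzd6 and Fzd10 were the ones higher in forestomach, and Fzd4 and Fzd5 the lower ones. Fzd8 ranged over 82.9 to 92.6 in junction, 83.0 to 105.4 in forestomach and 59.8 to 93.6 in corpus, and passed no test.

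Fzd5, a receptor with a known role in intestinal Paneth cells, was a receptor of the glandular side. It had 624.4, 496.8 and 561.5 in junction, 178.7, 187.0 and 189.7 in forestomach, and 719.2, 701.5 and 879.5 in corpus. No zone overlapped another. Junction was 2.92-fold higher than forestomach, and forestomach was 3.96-fold lower than corpus (limma adjusted p = 2.14e-05 and 1.69e-06). Junction was 1.36-fold lower than corpus (limma adjusted p = 0.0283). That call was lost in 10 alternatives: with no filter (limma adjusted p = 0.0506), with the mean of its probe sets (0.224), on the 6 arrays alone (0.0602), without junction array 2 or 3 (0.0925 and 0.074), without corpus array 1 or 3 (0.0522 and 0.0804) and without series 1, 2 or 3 (0.0664, 0.137 and 0.203). Its promoter, chr1:64737751-64738000 on the minus strand of GRCm38.p6, is shown as that of the receptor most lowered in forestomach, to set beside the genes of the squamous side.
Fzd5: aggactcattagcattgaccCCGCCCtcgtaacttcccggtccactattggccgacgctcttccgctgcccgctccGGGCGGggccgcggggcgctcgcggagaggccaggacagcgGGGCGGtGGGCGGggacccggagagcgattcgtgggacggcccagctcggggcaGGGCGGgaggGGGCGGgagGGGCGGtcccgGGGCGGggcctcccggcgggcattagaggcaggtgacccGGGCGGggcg
It holds 9 GC boxes and no TCF/LEF core.

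Fzd4, the receptor for norrin in retinal vessels, followed a like order with smaller steps. It had 544.9, 421.8 and 463.4 in junction, 336.3, 304.5 and 403.6 in forestomach, and 765.5, 664.9 and 650.6 in corpus. Forestomach was 1.97-fold lower than corpus (limma adjusted p = 0.000315), and no zone overlapped another. Junction was 1.45-fold lower than corpus and 1.36-fold higher than forestomach (limma adjusted p = 0.0232 and 0.029). The step to corpus was lost in 6 alternatives: without junction array 2 or 3 (limma adjusted p = 0.0794 and 0.0708), without corpus array 1 (0.0804) and without series 1, 2 or 3 (0.0789, 0.132 and 0.103). The step to forestomach was lost in 8 alternatives: on the 6 arrays alone (limma adjusted p = 0.0501), without forestomach array 1 or 2 (0.0781 and 0.0918), without junction array 1 or 3 (0.095 and 0.0576) and without series 1, 2 or 3 (0.199, 0.0962 and 0.054).

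Fzd1 was high on both squamous sides. It had 750.5, 956.2 and 922.9 in junction, 1065.7, 1239.0 and 1081.2 in forestomach, and 321.8, 366.2 and 325.0 in corpus. Junction was 2.54-fold and forestomach 3.27-fold higher than corpus (limma adjusted p = 8.72e-05 and 4.09e-06). Junction was 1.29-fold lower than forestomach (limma adjusted p = 0.0358), a call lost in 11 alternatives: with no filter (limma adjusted p = 0.06), with the mean of its probe sets (0.156), on the 6 arrays alone (0.0612), without any one forestomach array (0.0544, 0.109 and 0.0607), without junction array 1 or 3 (0.107 and 0.0501) and without series 1, 2 or 3 (0.158, 0.0996 and 0.111).

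Fzd2 and Fzd7, receptors known for mesenchymal and stem cell roles, were high in forestomach. Fzd2 had 190.7, 157.1 and 152.6 in junction, 491.1, 512.3 and 434.4 in forestomach, and 135.2, 194.0 and 131.4 in corpus. Junction was 2.77-fold lower than forestomach and overlapped with corpus, and forestomach was 3.03-fold higher than corpus (limma adjusted p = 0.000134 and 3.57e-05). Fzd7 had 223.6, 197.5 and 181.4 in junction, 370.5, 410.9 and 510.6 in forestomach, and 175.1, 148.2 and 139.4 in corpus. Forestomach was 2.67-fold higher than corpus (limma adjusted p = 4.09e-05), and junction, at 1.28-fold above corpus, did not pass (limma adjusted p = 0.102). Against forestomach, junction was 2.08-fold lower for Fzd7 (limma adjusted p = 0.000486).

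Fzd6, which orients skin hairs, had 446.5, 547.0 and 460.6 in junction, 647.5, 531.5 and 539.7 in forestomach, and 312.2, 363.0 and 368.2 in corpus. Forestomach was 1.63-fold and junction 1.38-fold higher than corpus (limma adjusted p = 0.00117 and 0.026). With the mean of its probe sets neither call held (limma adjusted p = 0.351 and 0.655). Tested singly, probe set 1448662_at was called higher in both comparisons (limma adjusted p = 0.000369 and 0.00694). The dim 1458904_at, with signals of 2.6 to 41.7, was called in neither. The junction call was also lost with the series block (limma adjusted p = 0.0512), without junction array 2 or 3 (0.0851 and 0.0548), without corpus array 1 or 2 (0.0889 and 0.05001) and without series 1, 2 or 3 (0.0791, 0.15 and 0.118).

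Fzd10 had 89.0, 78.5 and 86.2 in junction, 113.8, 121.1 and 117.6 in forestomach, and 67.2, 58.9 and 39.0 in corpus. The zones did not overlap. Forestomach was 2.0-fold and junction 1.48-fold higher than corpus (limma adjusted p = 0.000614 and 0.0312). The junction call was lost in 9 alternatives: with no filter (limma adjusted p = 0.0528), on the 6 arrays alone (0.0659), without junction array 1, 2 or 3 (0.0754, 0.0601 and 0.087), without corpus array 2 (0.0514) and without series 1, 2 or 3 (0.0689, 0.131 and 0.152). Junction against forestomach did not pass (limma adjusted p = 0.0524), and passed in 7 alternatives, at limma adjusted p-values down to 0.0074. The opposite-strand transcript at this locus has its own probe sets, and the strand assignment of both rests on the array's annotation. Fzd3 ranged over 143.8 to 161.1 in junction, 149.1 to 184.7 in forestomach and 182.1 to 187.6 in corpus, and did not pass in any comparison (limma adjusted p = 0.0816 for junction against corpus, with both zones apart). It was called lower in junction than in corpus with median centring and without forestomach array 2 (limma adjusted p = 0.0311 and 0.0487). Its second probe set, 1450135_at, was called lower in forestomach and in junction than in corpus.

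Of the 3 tested R-spondins, 2 were higher in forestomach than in corpus, against 30.0% of all genes. In junction against forestomach 2 were lower, against 23.1% of all genes. Rspo3, which in gut is a mesenchymal niche factor, had 429.3, 369.4 and 338.7 in junction, 1597.9, 1096.1 and 1615.0 in forestomach, and 259.8, 268.8 and 352.3 in corpus. Junction overlapped with corpus, at a log2 difference of 0.36 ± 0.18 (limma adjusted p = 0.182). Junction was 3.68-fold lower than forestomach, and forestomach was 4.73-fold higher than corpus (limma adjusted p = 7.44e-05 and 1.05e-05).

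Rspo1 had 49.5, 53.8 and 35.0 in junction, 109.5, 153.3 and 136.1 in forestomach, and 8.5, 37.2 and 54.8 in corpus. Junction was 2.56-fold lower than forestomach, and forestomach was 3.70-fold higher than corpus (limma adjusted p = 0.024 and 0.00345). The junction call was lost in 7 alternatives: with a pseudocount of 1 (limma adjusted p = 0.0658), without forestomach array 2 or 3 (0.0696 and 0.0621), without junction array 1 or 3 (0.0531 and 0.0742) and without series 2 or 3 (0.132 and 0.0978). Rspo2 ranged over 21.2 to 28.6 in junction, 30.6 to 35.4 in forestomach and 14.5 to 38.0 in corpus and passed no test. Without corpus array 1 or without series 1, and with quantile normalization, Rspo2 was higher in forestomach than in corpus (limma adjusted p = 0.00442, 0.0255 and 0.043).

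Of the 7 tested antagonists, 6 were higher in forestomach than in corpus, against 30.0% of all genes. In junction against corpus 5 were higher, against 13.2% of all genes, and none was lower in either comparison. In junction against forestomach 3 were lower and none was higher, against 23.1% and 21.5% of all genes. The median log2 difference of the antagonists was 1.36 in forestomach against corpus and 0.57 in junction against corpus. Sfrp5 passed in no comparison and ranged over 59.1 to 83.9 in junction, 33.6 to 85.0 in forestomach and 63.2 to 106.0 in corpus.

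Sfrp2, which binds Wnt proteins outside the cell, had 584.3, 661.7 and 862.4 in junction, 571.2, 635.4 and 589.1 in forestomach, and 66.5, 46.0 and 38.5 in corpus. Junction and forestomach overlapped, and every corpus array lay far below both. Junction was 11.9-fold and forestomach 10.3-fold higher than corpus (limma adjusted p = 4e-06 and 1.15e-06). Dkk2, a co-receptor binding antagonist, had 84.7, 76.1 and 124.6 in junction, 72.7, 78.9 and 82.1 in forestomach, and 13.3, 26.9 and 16.8 in corpus. All corpus arrays of Dkk2 were below the filter level, so the size of its difference is set in part by the pseudocount. On the log2 scale it was 1.86 for junction and 1.63 for forestomach against corpus, with ranges of 1.33 to 2.29 and 1.13 to 2.04 across the alternatives. With no filter, the limma adjusted p was 0.000791 and 0.000349.

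In Sfrp2 and Dkk2 the junction overlapped with forestomach and not with corpus, as it did in Wnt10a, Fzd6 and Wif1. The promoters of Sfrp2 and Dkk2, both on chromosome 3, are shown. In GRCm38.p6 they are chr3:83766071-83766320 and chr3:132085042-132085291, both on the plus strand.
Sfrp2: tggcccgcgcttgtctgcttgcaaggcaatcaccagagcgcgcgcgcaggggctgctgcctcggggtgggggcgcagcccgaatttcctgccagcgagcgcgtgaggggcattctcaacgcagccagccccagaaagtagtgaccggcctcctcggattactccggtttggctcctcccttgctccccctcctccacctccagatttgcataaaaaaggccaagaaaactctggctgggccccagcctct
Dkk2: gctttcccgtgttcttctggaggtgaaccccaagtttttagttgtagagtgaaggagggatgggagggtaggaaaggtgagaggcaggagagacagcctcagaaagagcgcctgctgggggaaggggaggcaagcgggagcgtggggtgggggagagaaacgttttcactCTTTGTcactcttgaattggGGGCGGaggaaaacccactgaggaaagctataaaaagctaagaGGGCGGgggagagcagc
The Dkk2 window holds 1 TCF/LEF core, CTTTGT, 80 bases before the start, and 2 GC boxes. The Sfrp2 window holds neither.

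Sfrp1 and Dkk3 had intermediate junction values. Sfrp1 had 975.1, 1170.8 and 1036.3 in junction, 1821.1, 1707.3 and 1988.8 in forestomach, and 632.6, 798.0 and 702.7 in corpus. Junction was 1.49-fold and forestomach 2.57-fold higher than corpus (limma adjusted p = 0.00914 and 1.58e-05), and junction was 1.73-fold lower than forestomach (limma adjusted p = 0.000819). The junction call against corpus was lost without series 1 (limma adjusted p = 0.0635) and without series 3 (0.0958), and 4 other Sfrp1 probe sets were kept. Of these, 1460187_at was called in all 3 comparisons in the same directions, 1448395_at was higher than corpus in both zones, 1438620_x_at was higher in forestomach than in corpus, and 1416594_at was not called.

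Dkk3, a family member that does not act as a typical Wnt inhibitor, had 298.6, 322.8 and 297.1 in junction, 683.5, 540.5 and 593.0 in forestomach, and 191.5, 222.9 and 229.9 in corpus. Junction was 1.41-fold and forestomach 2.74-fold higher than corpus (limma adjusted p = 0.0148 and 8.38e-06). The junction call was lost without junction array 2 (limma adjusted p = 0.0539), without corpus array 1 (0.0541) and without series 1, 2 or 3 (0.0705, 0.101 and 0.0953). Against forestomach, junction was 1.94-fold lower for Dkk3 (limma adjusted p = 0.000236).

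Sfrp4 and Wif1 completed the antagonists. Sfrp4 had 174.2, 148.9 and 109.7 in junction, 248.4, 314.1 and 281.5 in forestomach, and 147.0, 175.6 and 110.7 in corpus. Forestomach was 1.91-fold higher than corpus (limma adjusted p = 0.00357), and junction and corpus overlapped. Against forestomach, junction was 1.91-fold lower for Sfrp4 (limma adjusted p = 0.00534). Wif1 was dim, with 34.4, 28.2 and 20.6 in junction, 39.6, 36.6 and 19.8 in forestomach, and 12, 9.5 and 10.4 in corpus. Its corpus signals were about the size of the pseudocount and below the filter level, so the size of the difference is not fixed by these arrays. The log2 difference was 0.86 for junction and 0.996 for forestomach against corpus, with ranges of 0.49 to 1.28 and 0.58 to 1.45 across the alternatives. With no filter, the limma adjusted p was 0.0313 and 0.00551. The forestomach call was lost without series 2 (limma adjusted p = 0.0608). The junction call was lost with limma's trend and robust options (limma adjusted p = 0.0773), without junction array 1 or 2 (0.0506 and 0.056), without corpus array 2 (0.0541) and without series 1 or 2 (0.0875 and 0.155).

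**Figure D4:**
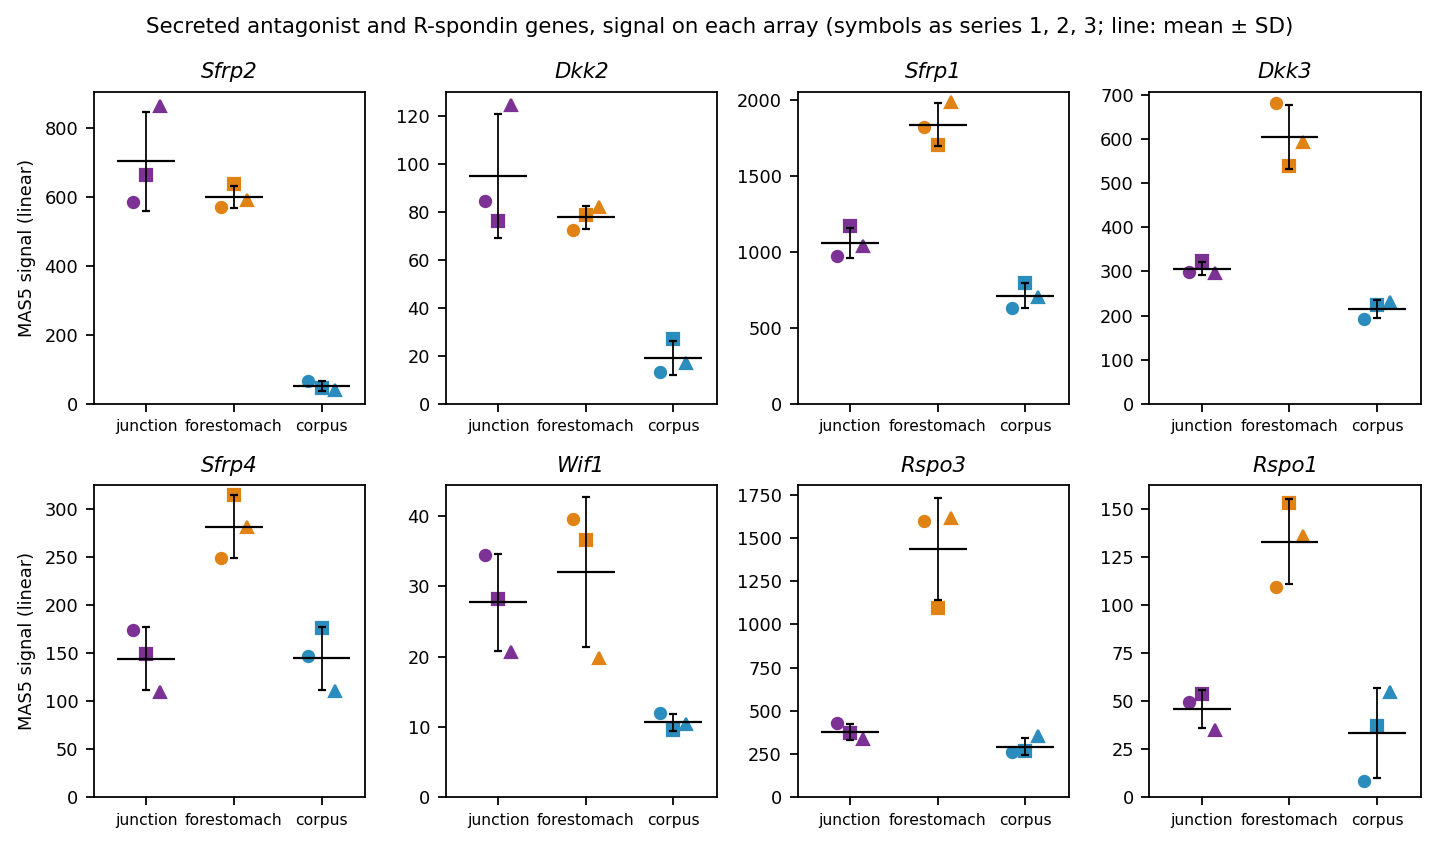
MAS5 signal of antagonist and R-spondin genes on each array, on linear axes, with symbols for series 1 to 3 and the mean ± SD. Sfrp2 and Dkk2 overlap between junction and forestomach, whereas Rspo3 overlaps between junction and corpus.

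Axin2, a feedback inhibitor widely used as a readout of beta-catenin signalling, had 132.3, 118.0 and 99.3 in junction, 194.1, 170.0 and 177.2 in forestomach, and 76.2, 70.7 and 58.8 in corpus. Its levels stepped down without overlap in the order forestomach, junction, corpus. Forestomach was 2.43-fold and junction 1.61-fold higher than corpus (limma adjusted p = 3.84e-05 and 0.00589), and junction was 1.51-fold lower than forestomach (limma adjusted p = 0.00553). The junction call against corpus was lost without series 2 (limma adjusted p = 0.0842). Its window, chr11:108920099-108920348 on the plus strand of GRCm38.p6, is shown as that of the pathway's readout.
Axin2: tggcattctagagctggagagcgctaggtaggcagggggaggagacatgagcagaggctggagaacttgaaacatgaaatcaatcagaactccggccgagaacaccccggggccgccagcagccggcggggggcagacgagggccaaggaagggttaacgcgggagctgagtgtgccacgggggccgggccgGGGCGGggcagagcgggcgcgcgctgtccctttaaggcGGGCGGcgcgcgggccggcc
It holds 2 GC boxes and no TCF/LEF core. Lef1, a DNA-binding partner of beta-catenin, did not pass the filter, with 0.6 to 42.2 on its 2 probe sets.

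The genes not kept were dim throughout. With no filter, 3 of these 14 genes were called in forestomach against corpus, where 44.6% of all 18193 genes were called, none in junction against corpus (15.4%), and 3 in junction against forestomach (31.1%). In forestomach against corpus, Wnt2b was called higher and Wnt2 and Wnt8a lower. In junction against forestomach, Wnt2 and Dkk1 were called higher and Wnt2b lower. Wnt2b, a mesenchymal ligand, had 2.0, 3.0 and 2.7 in junction, 14.1, 20.9 and 5.9 in forestomach, and 2.8, 2.4 and 3.6 in corpus. Such levels lie below the filter and are given as values alone.

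The place of the junction between its neighbours differed from gene to gene. It was expressed as a percentage, with corpus at 0 and forestomach at 100, on linear signals within each series, for the 18 genes called in forestomach against corpus with a log2 difference of at least 1. The junction mean was 126.6 ± 35.7 for Dkk2, 122.9 ± 38.2 for Wnt10a and 118.9 ± 26.6 for Sfrp2 (SD, n = 3 series each), so that these genes were at about the forestomach level. Fzd1 stood at 68.1 ± 10.7 and Wnt7b at 66.5 ± 3.28. Axin2 stood at 43.1 ± 7.74, Wnt4 at 33.2 ± 8.16 and Sfrp1 at 31.9 ± 7.99. Rspo3 at 7.92 ± 7.79, Fzd2 at 3.67 ± 13.9 and Wnt9a at -4.01 ± 20.2 were at about the corpus level. Over all 1795 genes higher in forestomach by the same rule, the median was 31.64, with quartiles of 13.57 and 47.99. These all-gene values were taken from the zone means and not within each series. Each place rests on the brightest kept probe set of its gene, and the SD does not cover other probe sets. On 1441687_at of Wnt4 the means were 621.9 in junction, 1027.4 in forestomach and 108.0 in corpus. On 1448395_at of Sfrp1 they were 418.0, 408.1 and 272.0, and on 1438620_x_at they were 175.6, 236.6 and 152.6, in the same order of zones.

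The place of the junction also differed between marker lists. The summed squamous basal markers stood at 102.26 ± 16.79 and the suprabasal and cornified ones at 82.58 ± 9.89. The fibroblast markers stood at 36.51 ± 8.18 and the smooth muscle markers at 4.72 ± 10.38. Within the basal list, Trp63 had 886.9, 1154.1 and 1418.6 in junction and 1604.5, 1736.4 and 1613.2 in forestomach. Col17a1 was also lower on every junction than on every forestomach array, whereas Krt5, Krt14 and Krt15 overlapped. Surface and neck mucous markers, at -20.26 ± 60.23, scattered widely between series, with series 3 at -89.77. Lists with closer outer zones also scattered widely, with enteric nerve and glia markers at -105.52 ± 80.78 and vessel markers at -208.89 ± 274.11. Enteric nerve and glia sums were lowest in junction, at 344.2 to 398.9, against 609.7 to 698.7 in forestomach and 479 to 535.3 in corpus. Adipocyte sums were also lowest in junction, at 1768.8 to 1852.7. Immune cell marker sums were highest in junction, at 3446.5 to 3666.7, against 2268.3 to 2719 in forestomach and 2091.9 to 2498.6 in corpus. Smooth muscle markers were higher in forestomach than in corpus for 8 of 8 genes and passed in junction against corpus for none of them, and 8 of 8 were lower in junction than in forestomach. For 9 fibroblast markers these counts were 8 higher, 3 higher and 7 lower. Of 6 enteric nerve and glia markers, 4 were higher in forestomach than in corpus and 4 lower in junction than in forestomach. Of all genes, 30.0% were higher in forestomach and 13.2% in junction than in corpus, and 23.1% were lower in junction than in forestomach. Mesothelial markers summed to 116.9 to 175.5 in junction, 483.5 to 664.9 in forestomach and 125.5 to 153.3 in corpus. The part of any of these cell types in the Wnt genes' values was not tested.

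**Figure D5:**
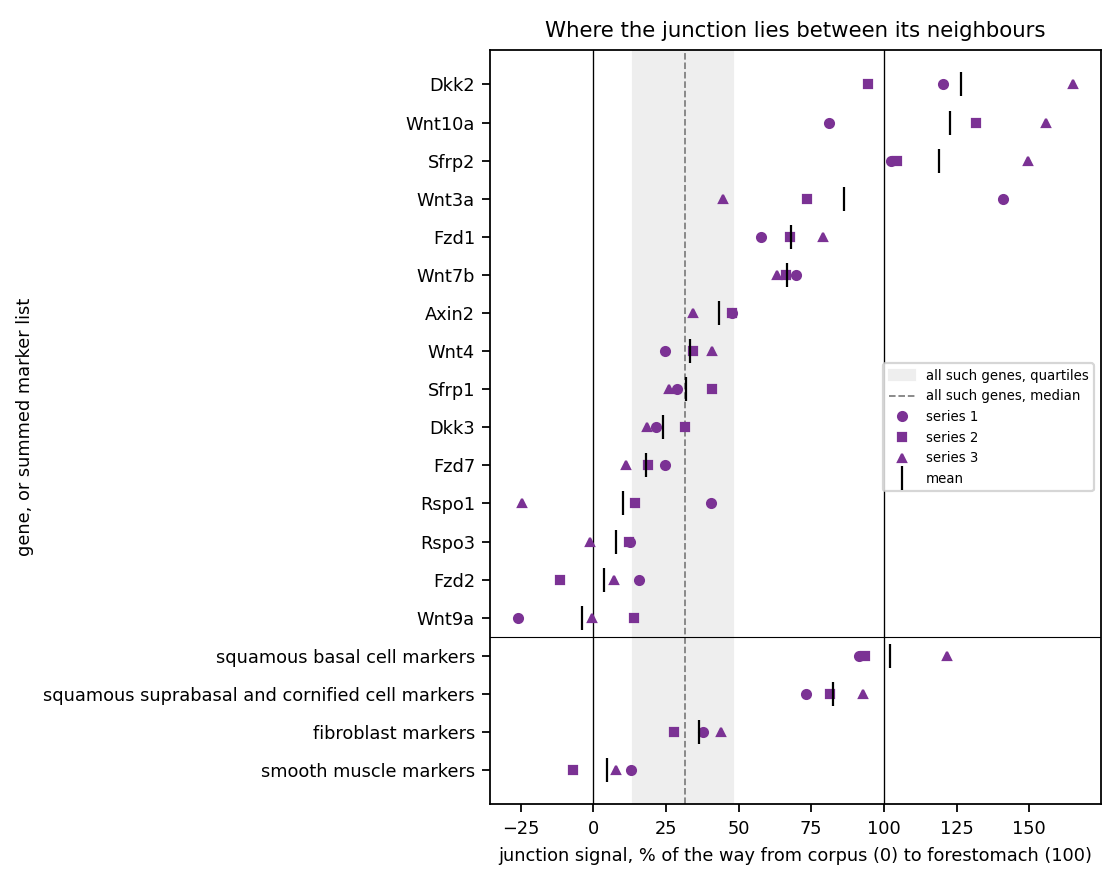
Place of the junction between corpus (0%) and forestomach (100%) for the Wnt genes higher in forestomach by a log2 difference of at least 1. Each gene is read on its brightest kept probe set. Points are series 1 to 3 with a bar at the mean, above the summed squamous, fibroblast and smooth muscle markers. The shaded band and dashed line are the quartiles and median of all genes chosen by the same rule, taken from zone means and not within series. Dkk2, Wnt10a and Sfrp2 average above 100%, and Rspo3, Fzd2 and Wnt9a lie near 0%.

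Other genes of the pathway were followed in lists of 63 genes, of which 54 were tested. In forestomach against corpus 26 were higher and 10 lower, in junction against corpus 14 were higher and 2 lower, and in junction against forestomach 7 were higher and 15 lower. Their median log2 differences were 0.44, 0.17 and -0.11. The shares of all genes called are those given for the Wnt genes above.

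Co-receptors differed in both directions. Ptk7, Ror2, Ror1 and Ryk, receptors tied to signalling without beta-catenin, were higher in forestomach than in corpus, by 2.51, 1.90, 1.71 and 0.96 on the log2 scale. Ptk7 ranged over 1.75 to 3.24 with the pseudocount, and Ror1 was at 0.88 with the mean of its probe sets. Lgr5, an R-spondin receptor and stem cell marker, had 171.4, 184 and 133.5 in junction, 4.9, 44.6 and 38 in forestomach, and 215.1, 193.4 and 180.5 in corpus. Of 11 genes in this list 4 were higher and 4 lower in forestomach than in corpus, against 30.0% and 29.9% of all genes. In junction against corpus 3 were higher and none lower, and in junction against forestomach 3 were higher and 3 lower. The genes lower in forestomach than in corpus included Lgr5 (-2.61) and the co-receptor gene Lrp5 (-0.80). Lrp5 was dim, with 29.1, 17.1 and 23.7 in forestomach and 37.5, 68.4 and 40.7 in corpus. Its call was lost without forestomach array 2 and without series 2. The lowest Lgr5 value was on forestomach array 1, the array with few glandular transcripts, and without it the difference was -2.01.

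Of 9 tested feedback and target genes, 6 were higher and 1 lower in forestomach than in corpus, against 30.0% and 29.9% of all genes. In junction against corpus 3 were higher and none lower, against 13.2% and 11.8% of all genes. Cd44, a surface receptor for hyaluronan, rose by 3.59 in forestomach and 3.07 in junction on the log2 scale. Nkd1, an inhibitor of Dishevelled, was 3.35-fold higher in forestomach than in corpus. Sox9, a progenitor transcription factor, was 6.94-fold lower in forestomach than in corpus and 5.44-fold higher in junction than in forestomach (limma adjusted p = 1.75e-05 and 9.12e-05).

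Apcdd1, a membrane inhibitor of Wnt signalling, had 638.9, 777.1 and 1240.8 in junction, 263.3, 332.8 and 334.5 in forestomach, and 140.6, 170.3 and 166.6 in corpus. All junction arrays exceeded all others. Junction was 2.71-fold higher than forestomach and 5.11-fold higher than corpus (limma adjusted p = 0.00104 and 0.000142), but the joint test gave a limma adjusted p of 0.0559. Frzb, a secreted Frizzled-related protein, had 6.6, 31.4 and 29.1 in junction, 40.8, 76.2 and 42.4 in forestomach, and 6.8, 29.1 and 7.6 in corpus. Forestomach was higher than corpus (limma adjusted p = 0.0196), a call lost without forestomach array 2 (0.068), without corpus array 1 or 3 (0.0665 and 0.0651) and without series 3 (0.11). Junction against forestomach did not pass for Frzb (limma adjusted p = 0.0876), and passed with the series block (0.0175). Sostdc1, a secreted inhibitor, was lower than corpus both in forestomach (-1.31) and in junction (-1.28), and the junction call was lost without series 2 (limma adjusted p = 0.117). In the planar polarity list 5 of 6 genes were higher in forestomach than in corpus and none lower, led by Prickle2 at 3.29-fold. The shares of all genes were 30.0% higher and 29.9% lower.

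Inside the cell the steps differed in direction and size. In forestomach against corpus, 30.0% of all genes were higher and 29.9% lower. Of 11 tested genes of the destruction complex, 3 were higher and 2 lower in forestomach than in corpus. Among them were the kinase gene Csnk1e at 1.27 and the scaffold gene Apc at -0.77 on the log2 scale. Gsk3b, the kinase that marks beta-catenin for removal, was at 0.90, against 0.20 with the mean of its probe sets, where its call was lost (limma adjusted p = 0.066). Of 10 nuclear partners 4 were higher and 2 lower, led by Ctnnbip1, which keeps beta-catenin from TCF factors, at 2.42, or 1.66 with the mean of its probe sets. Porcn, which adds the lipid to Wnt proteins, was 1.92-fold higher in forestomach than in corpus and 1.63-fold lower in junction than in forestomach (limma adjusted p = 8.79e-05 and 0.000906).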

How the data were processed

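RNA of 9 pools was hybridised to Affymetrix mouse arrays. The values used are the authors' deposited MAS5 signal, a linear intensity per probe set, with MAS5 named per the submitters' processing notes. Each array's 2% trimmed mean was 200.0 and its median 47.9 to 57.1; the number of arrays limits the precision. Gene names came from the platform's annotation, with 34741 of 34945 single-symbol probe sets matched through Entrez identifiers.

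From there, log2(signal + 9.9) was fitted with limma 3.58.1 in R 4.3.3 over all 9 arrays, with zone as the term and no block. Folds are on that scale. For each gene the brightest kept probe set (by its average over the arrays) was tested, and all kept ones were also tested singly. P-values were adjusted by Benjamini-Hochberg over 13637 genes, at 0.05. Above or below both neighbours used the larger of the 2 two-sided p-values where both differences had the same sign, and 1 otherwise. The procedure was tested on simulated data. The labels name a pool of 3 mice per array, so the p-values measure the spread between pools.

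Same-numbered arrays share mice, per the study's design text. Deviations from the zone means correlated between them at -0.0286 to 0.123 over 9 pairs, so the block was run as an alternative. Alternatives covered the pseudocount, filter, normalization, probe set summary, limma options, block and each array or series left out. The text names all members that passed, and up to 4 pathway genes per list and comparison, those with the largest difference; a gene named for one comparison may also be given in another. Members and lists were chosen with earlier results of these data known.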

Additional observations from a re-analysis of the deposited data

How the results depend on the processing

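Over the tested Wnt genes and 22 alternatives, 638 results of forestomach against corpus, 591 of junction against corpus and 609 of junction against forestomach kept their side of the threshold, 10, 56 and 34 lost their call, 4, 5 and 9 gained one, and none reversed. The series as a replicate block changed the number of genes above both neighbours to 12, against 27, left no Wnt gene among them (0, against 1 for Wnt5a), and left 0 genes below both, against 2; of the Wnt genes' calls between 2 zones it ended those of Wnt5a in forestomach against corpus and Fzd6 in junction against corpus and no other. With 1 array or series left out, Wnt genes higher in junction than corpus numbered 8 to 14 (14 with all arrays), lower ones 0 to 3 (2), Wnt genes above both 0 to 1, and all genes above and below both 0 to 21 and 0 to 3. All genes higher and lower in junction than corpus then numbered 903 to 1734 (1801) and 326 to 1586 (1606), and all genes lower and higher in junction than forestomach 1963 to 3129 (3152) and 1987 to 2853 (2927). Wnt genes lower in junction than corpus numbered 1 with no filter, 4 with median centring, 1 with the mean of probe sets and 1 on the 6 arrays alone. Genes above both neighbours numbered 12 with a pseudocount of 1, 67 with a larger one, 16 with no filter, 50 with a stricter filter, 43 with the mean of probe sets and 50 with trend and robust options, and those below both 1, 8, 1, 9, 3 and 14, with 4 under median centring. With probe sets averaged per gene, 3 pathway values that had not passed took the opposite sign and passed: Lgr6 at 0.47 in forestomach against corpus and -0.48 in junction against forestomach, and Bcl9l at 0.48 in junction against forestomach (limma adjusted p = 0.0402, 0.0467 and 0.0277). Pathway values that changed by over 1.5 times included Ctnnbip1 at 1.66 and Ror1 at 0.88 with that mean in forestomach against corpus. The cause was not tested. Signals under the filter level of 29.0 to 36.5 limit what can be said of the 14 genes not kept.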
